A study of Mus musculus with 11 samples.

Results

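The genes of MHC class I antigen presentation were followed in vascular endothelial cells sorted from the retinas of mice with oxygen-induced retinopathy (OIR). The 10 genes were chosen by symbol: the heavy chains H2-K1, H2-D1 and H2-T23, the light chain B2m, the transporter and loading genes Tap1, Tap2 and Tapbp, the immunoproteasome subunits Psmb8 and Psmb9, and the transactivator Nlrc5. All 10 were found among the 55359 genes counted in each of 11 C57BL/6 mice, and they are a small part of that table. In the OIR model, pups are kept in high oxygen and returned to room air, and new vessels then grow into the hypoxic retina. At P12, 5 mice were injected intravitreally with oncostatin M (OSM), 0.5 µL at 100 ng/µL, and 6 mice with PBS. At P17, CD31+/CD45- cells of both retinas of each mouse were sorted and pooled into 1 library. Both groups carried the oxygen exposure, and the labels name no transgene. The mice came from 3 litters. Mice 1 and 2 (OSM) and 3 and 4 (PBS) were litter 1, mice 5 and 6 (OSM) and 7 and 8 (PBS) litter 2, and mouse 9 (OSM) with mice 10 and 11 (PBS) litter 3. Each litter was 1 OIR run, so litter and run cannot be told apart. The study's methods state that fellow eyes served for PBS injections without saying how the eyes of a sequenced mouse were treated, and the 1 treatment that the labels give to each mouse was used.

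MHC class I molecules show peptides from inside the cell to CD8+ T cells. Proteasomes cut the peptides, the TAP transporter carries them into the endoplasmic reticulum, tapasin holds an empty heavy chain with its light chain beta-2 microglobulin close to TAP, and loaded complexes travel to the surface. Nearly all nucleated cells carry the pathway, endothelial cells included, and interferons raise most of its genes through IRF1 and the transactivator NLRC5. Type I interferons and interferon gamma also exchange the catalytic subunits of the proteasome for inducible ones, which forms the immunoproteasome.

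The reads counted on genes numbered 26697990 to 56033479 per mouse (median 32500202), and mouse 9 had the deepest library. The label of the sort was checked with marker genes in CPM, the reads of a gene scaled to the total of its library and between libraries by edgeR's TMM factors. The 10 endothelial markers summed to 13822 to 19069 CPM and each was detected in every mouse. The 17 leukocyte markers summed to 1.34 to 20.2 CPM in OSM-treated and 1.78 to 87.6 CPM in PBS-treated mice, and only the lysozyme gene Lyz2 was detected in every mouse. Ptprc, which encodes CD45, had reads in 5 of 11 mice and at most 22 reads. The 7 MHC class II genes, typical of professional antigen-presenting cells, summed to 7.38 to 39.9 CPM with OSM and 5.14 to 57.8 CPM with PBS. Summed mural markers were 518 to 1037 CPM with OSM and 360 to 2024 CPM with PBS, and erythroid markers 361 to 1129 CPM with OSM and 117 to 596 CPM with PBS. Rod markers summed to 213 to 5637 CPM with OSM, where mouse 5 stood apart with the highest sum, and to 396 to 1541 CPM with PBS. Müller glia markers summed to 1752 to 2217 CPM over the 11 mice, although only 5 of these 10 genes were detected in every mouse. This sum does not show which genes carried it, so it was not read as a share of glial cells. In sorted pools, a change in the number of cells of a type and a change in RNA per cell cannot be told apart.

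Of the 10 genes, 8 lie in the MHC on chromosome 17 of GRCm39. The windows of 250 bases upstream of the annotated start (canonical transcript) were read for the heavy chains H2-K1 and H2-D1 and the subunit Psmb8, because they are the classical heavy chains and the gene with the largest fitted difference. Capitals mark matches to the letters TGACG (the core of the X2 box bound by CREB/ATF factors), CCAAT (the Y box bound by NF-Y) and the NF-kappa-B consensus on either strand.
H2-K1, chr17:34219322-34219571, minus strand: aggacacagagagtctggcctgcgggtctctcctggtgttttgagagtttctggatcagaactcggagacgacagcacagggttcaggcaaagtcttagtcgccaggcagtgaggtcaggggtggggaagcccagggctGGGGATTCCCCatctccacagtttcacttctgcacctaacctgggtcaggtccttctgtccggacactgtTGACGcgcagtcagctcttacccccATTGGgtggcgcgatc
H2-D1, chr17:35481441-35481690, plus strand: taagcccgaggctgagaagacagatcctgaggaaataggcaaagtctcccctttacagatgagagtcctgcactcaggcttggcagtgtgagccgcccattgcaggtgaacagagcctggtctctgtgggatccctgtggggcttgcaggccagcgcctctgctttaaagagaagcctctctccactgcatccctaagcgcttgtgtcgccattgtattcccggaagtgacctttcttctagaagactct
Psmb8, chr17:34416440-34416689, plus strand: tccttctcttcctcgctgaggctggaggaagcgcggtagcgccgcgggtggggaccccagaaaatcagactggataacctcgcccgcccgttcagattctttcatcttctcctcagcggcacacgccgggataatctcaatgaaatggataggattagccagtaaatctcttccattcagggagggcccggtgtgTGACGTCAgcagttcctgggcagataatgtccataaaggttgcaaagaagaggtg
The H2-K1 window held 1 stretch of overlapping matches to the NF-kappa-B consensus, at -111 to -101 from the start, followed by TGACG and by CCAAT on the opposite strand. The Psmb8 window held TGACG on both strands in an overlapping palindrome. The H2-D1 window held none of these letters. It lies upstream of the outermost annotated base of the gene. The start used in these cells was not measured, and letters outside the window were not searched. The NF-kappa-B consensus was found in 4.20% of the same windows of the 16961 tested genes that have one, CCAAT in 34.5% and TGACG in 21.2%. GAAA, any 2 bases and GAAA again, a core of the interferon-stimulated response element, was in 3.16% of them and in the window of 0 of the 10 genes. Only this exact spelling was searched, so variants of the element were not counted and may be present in these windows. CCAAT was also in the windows of Tap1 and Tapbp. These matches describe letters and no binding was measured.

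Levels were compared between genes as CPM per kb of merged exons. H2-D1 had the highest mean level, 479 ± 56.1 CPM per kb (SD, n = 11 mice), which ranked 34 among 16962 tested genes with a length. B2m followed with 366 ± 75.2 CPM per kb (SD, n = 11, rank 48), and H2-D1 was above B2m in 11 of 11 mice. Tapbp had 78.7 ± 10.8 CPM per kb (SD, n = 11), H2-K1 62.1 ± 15.8 (SD, n = 11) and H2-T23 31.8 ± 8.56 (SD, n = 11). Gapdh served as a scale: H2-D1 stood at 4.79 times and H2-K1 at 0.622 times its level per kb.

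Lower in this order came Psmb8 with 17.7 ± 5.15 CPM per kb, Tap2 with 16.96 ± 2.89, Tap1 with 12.4 ± 2.41 and Psmb9 with 8.69 ± 2.56 (SD, n = 11 each). Psmb8 and Tap2 did not differ beyond their spread, since Psmb8 was above Tap2 in 5 of 11 mice (log2 ratio 0.03 ± 0.43, SD). Tapbp was above H2-K1, Tap2 above Tap1, and Tap1 above Psmb9 in 10 of 11 mice each. Nlrc5 was far below the rest, at 0.0129 CPM per kb, rank 16929. The order of close neighbours depended on the length used. Per kb of the canonical transcript, B2m (709 CPM per kb) was above H2-D1 (677), H2-K1 (122) above Tapbp (116), and Psmb9 (24.4) above Tap1 (23.97) and Tap2 (20.3). The plot of levels per length shows these values.

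**Figure D1:**
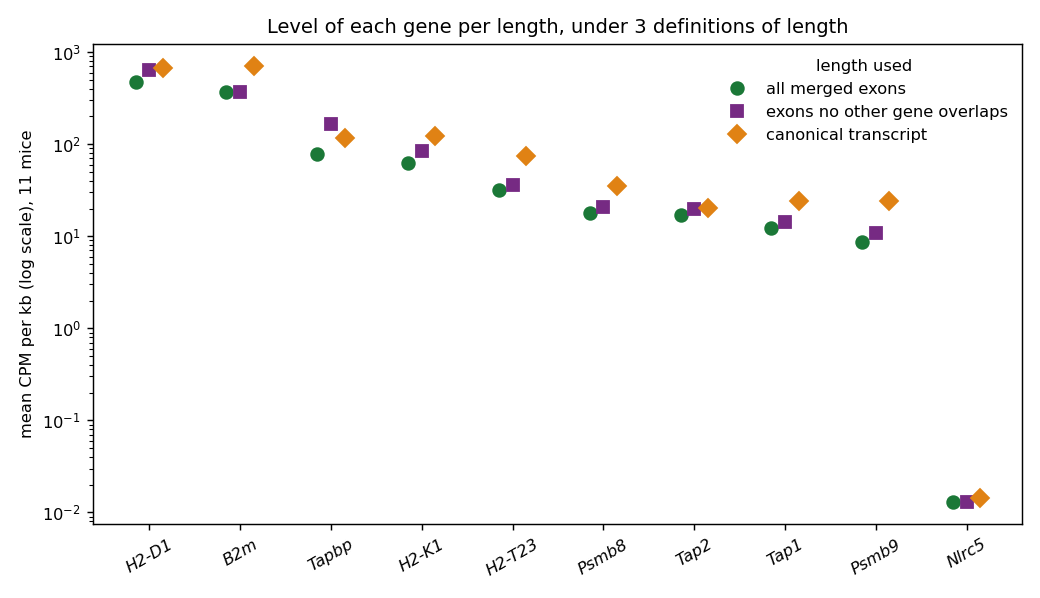
Mean level of the 10 genes over 11 mice, in CPM per kb on a log axis, with length taken as merged exons (circles), exons free of other genes (squares) or the canonical transcript (diamonds). H2-D1 and B2m lead under each length, from 366 to 709 CPM per kb, and Nlrc5 is at most 0.0144 CPM per kb.

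Reads that match several places were left out by the authors' counting, which lowers the level of genes with near copies. Of all 50-base windows in the canonical exons, 37.8% of those of H2-T23, 16.4% of those of H2-D1 and 8.06% of those of H2-K1 occur elsewhere in the genome as exact copies. For B2m, Psmb8 and Psmb9 this share was 0%. Levels of H2-T23 and H2-D1 are thus the most uncertain among the heavy chains. Other genes overlap 52.8% of the merged exon bases of Tapbp in the annotation used here.

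H2-K1 (ENSMUSG00000061232, chromosome 17 of GRCm39, 34214987 to 34219321, minus strand) encodes a classical heavy chain that presents peptides to T cells. Its level was 204 CPM in OSM-treated mouse 1, 239 in mouse 2, 188 in mouse 5, 180.0 in mouse 6 and 324 in mouse 9. PBS-treated mice had 143 to 215 CPM with a median of 171. Mouse 9 was the highest of the 11, mouse 2 was also above the PBS range, and the other 3 OSM-treated mice were inside it. The log2 fold change between OSM and PBS was 0.39 (SE 0.14, 95% interval 0.08 to 0.71; edgeR's quasi-likelihood test, adjusted p = 0.955).

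H2-D1 (ENSMUSG00000073411, chromosome 17, 35481691 to 35486475, plus strand), the other classical heavy chain counted here, had 1385, 1508, 1451, 1508 and 1759 CPM in OSM-treated mice 1, 2, 5, 6 and 9. PBS-treated mice had 1131 to 1542 CPM (median 1340). Apart from mouse 9, OSM-treated mice lay inside the PBS range. The log2 fold change was 0.16 (SE 0.09, 95% interval -0.04 to 0.37; edgeR, adjusted p = 0.970). H2-D1 varied least between mice among the 10 genes, with a coefficient of variation of 11.7%.

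H2-T23 (ENSMUSG00000067212, chromosome 17, 36340229 to 36345571, minus strand) encodes Qa-1, a nonclassical heavy chain recognised by NKG2A receptors of natural killer cells. Its level was 115, 146, 108.1, 121 and 152 CPM in OSM-treated mice 1, 2, 5, 6 and 9, against 66.0 to 137 CPM (median 83.2) with PBS. Each OSM-treated mouse was above the same 4 PBS-treated mice, while PBS-treated mice 3 (116 CPM) and 8 (137 CPM) lay in the range of OSM. The log2 fold change was 0.45 (SE 0.20, 95% interval 0.02 to 0.89; edgeR, adjusted p = 0.955).

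B2m (ENSMUSG00000060802, chromosome 2, 121977957 to 121983594, plus strand), the light chain that class I heavy chains need to reach the surface, had 781, 795, 803, 1000 and 1051 CPM in OSM-treated mice 1, 2, 5, 6 and 9. PBS-treated mice had 529 to 834 CPM with a median of 651. Each OSM-treated mouse was above 5 of the 6 PBS-treated mice, and PBS-treated mouse 3 of litter 1 (834 CPM) was above 3 of the OSM-treated mice. The log2 fold change was 0.41 (SE 0.13, 95% interval 0.14 to 0.69; edgeR, adjusted p = 0.955). Per kb, H2-D1 stood to B2m as 1.35 ± 0.291 (SD, n = 11), H2-K1 as 0.171 ± 0.0279 and H2-T23 as 0.0876 ± 0.0207. H2-D1 was 7.99 ± 1.55 times H2-K1 per kb (SD, n = 11). These ratios hold for merged exons and change with the length used. Per kb of the canonical transcript, H2-D1 (677) was below B2m (709), and H2-K1 was at 122.

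**Figure D2:**
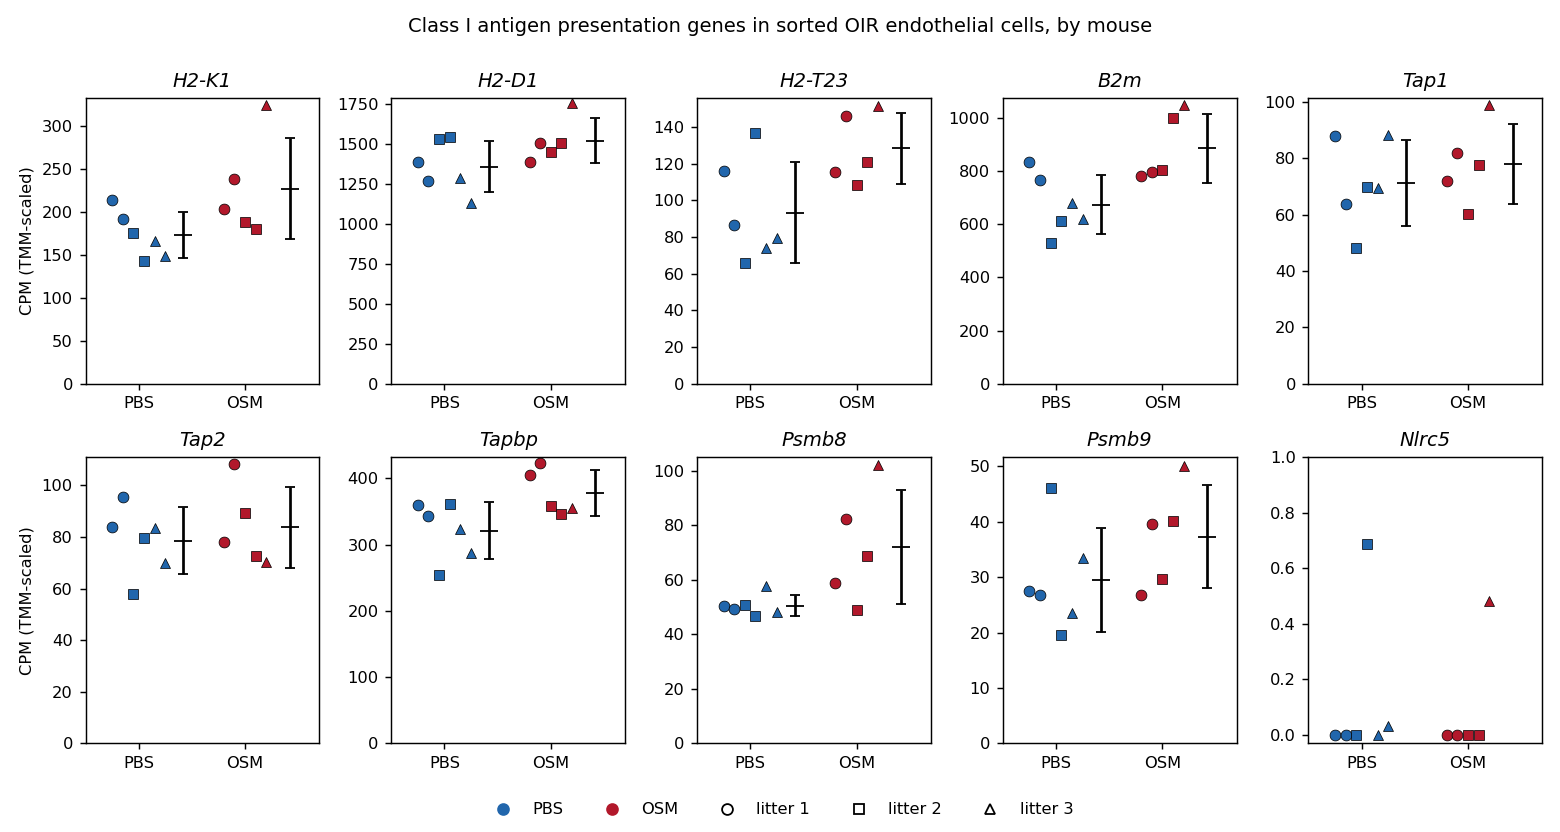
Level of each of the 10 genes in CPM scaled by TMM, by mouse. Symbols give the litter, colours the treatment, and bars the mean with SD (n = 6 PBS, n = 5 OSM; no bars for Nlrc5). OSM-treated mouse 9 (red triangle) is the highest of 11 mice for H2-K1 at 324 CPM, for B2m at 1051 CPM and for Psmb8 at 102 CPM, and the groups overlap in each panel.

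Tap1 (ENSMUSG00000037321, chromosome 17, 34405996 to 34416199, plus strand) and Tap2 (ENSMUSG00000024339, chromosome 17, 34422501 to 34435829, plus strand) encode both subunits of the peptide transporter. Tap1 had 60.4 to 99.1 CPM with OSM (median 77.6) and 48.2 to 88.3 CPM with PBS (median 69.8), a log2 fold change of 0.18 (SE 0.15, 95% interval -0.16 to 0.51; edgeR, adjusted p = 1). Tap2 had 70.3 to 108.4 CPM with OSM (median 77.9) and 57.9 to 95.7 CPM with PBS (median 81.6), a log2 fold change of 0.08 (SE 0.14, 95% interval -0.24 to 0.40; edgeR, adjusted p = 1). The groups overlapped for both subunits. In mouse 9, which was highest for Tap1, Tap2 was the lowest among OSM-treated mice at 70.3 CPM.

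Tapbp (ENSMUSG00000024308, chromosome 17, 34134873 to 34148267, plus strand) encodes tapasin, which bridges the heavy chain and TAP. It had 406, 423, 358, 346 and 356 CPM in OSM-treated mice 1, 2, 5, 6 and 9, and 254 to 360.5 CPM (median 333) with PBS. Mice 1 and 2 were above the PBS range and the other OSM-treated mice inside it. The difference was nearly alike in the litters, with log2 values of 0.24, 0.22 and 0.22 in litters 1, 2 and 3. The fitted log2 fold change was 0.22 (SE 0.09, 95% interval 0.02 to 0.42; edgeR, adjusted p = 0.955).

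Psmb8 (ENSMUSG00000024338, chromosome 17, 34416690 to 34420428, plus strand) and Psmb9 (ENSMUSG00000096727, chromosome 17, 34400960 to 34406738, minus strand) encode inducible catalytic subunits of the immunoproteasome. Psmb8 had 58.7, 82.3, 48.9, 68.8 and 102 CPM in OSM-treated mice 1, 2, 5, 6 and 9. The 6 PBS-treated mice were close together, from 46.8 to 57.8 CPM (median 49.8). Of the OSM-treated mice, 4 of 5 were above each PBS-treated mouse, and mouse 5 was within their range. The log2 fold change of 0.53 was the largest of the 10 genes (SE 0.16, 95% interval 0.18 to 0.89; edgeR, adjusted p = 0.955). Psmb9 overlapped more, with 26.9 to 50.1 CPM with OSM (median 39.6) and 19.6 to 46.0 CPM with PBS (median 27.2), a log2 fold change of 0.35 (SE 0.25, 95% interval -0.20 to 0.91; edgeR, adjusted p = 1). Psmb9 and Tap1 lie head to head and share 743 exon bases in the annotation, where reads of neither gene are counted.

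Each inducible subunit was set against the constitutive subunit that it replaces, as a log2 ratio per kb in the same mouse. Psmb8/Psmb5 was -1.28 ± 0.41 (SD, n = 5) with OSM and -1.75 ± 0.44 (SD, n = 6) with PBS. In litters 2 and 3, each OSM-treated mouse was above each PBS-treated mouse of its litter, and in litter 1 mouse 1 (-1.23) was just below PBS-treated mouse 4 (-1.21). The litter-adjusted difference was 0.49 (exact permutation test within litters, two-sided, p = 0.0185, adjusted p = 0.0556 over 3 ratios; smallest p possible 0.00926). Psmb9/Psmb6 was -4.03 ± 0.34 (SD, n = 5) with OSM and -4.37 ± 0.43 (SD, n = 6) with PBS, a difference of 0.34 (exact permutation test, p = 0.185, adjusted p = 0.278). Psmb10/Psmb7 was 1.96 ± 0.22 (SD, n = 5) with OSM and 1.94 ± 0.31 (SD, n = 6) with PBS, a difference of -0.01 (exact permutation test, p = 0.963, adjusted p = 0.963). No ratio passed the threshold after adjustment. The height of a ratio depends on the lengths used, while its difference between the groups does not. Merged exons of Psmb7 cover 6025 bases, 46.8% of them overlapped by another gene, against 1732 bases for Psmb10. In CPM, mean Psmb10 was 125 with OSM and 103 with PBS, and mean Psmb7 was 113 and 91.2.

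**Figure D3:**
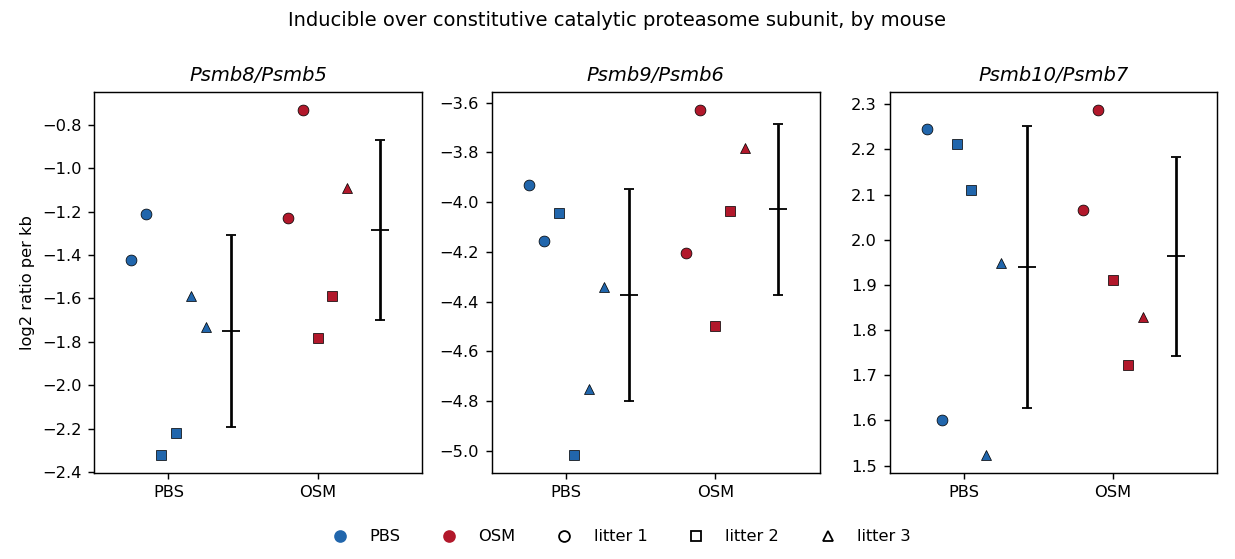
Log2 ratio per kb of each inducible catalytic subunit to the constitutive subunit it replaces, by mouse, with group means and SD (n = 6 PBS, n = 5 OSM). Psmb8/Psmb5 differs by 0.49 after adjustment for litter, Psmb9/Psmb6 by 0.34 and Psmb10/Psmb7 by -0.01, and the groups overlap in each panel. The height of each ratio depends on the exon lengths used.

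Nlrc5 (ENSMUSG00000074151, chromosome 8, 95160984 to 95253900, plus strand) encodes the transactivator that assembles on class I promoters. It had 24 reads in PBS-treated mouse 8, 27 reads in OSM-treated mouse 9, 1 read in PBS-treated mouse 11 and 0 reads in the other 8 mice. A count of 0 allows up to 3 reads, or 0.0862 to 0.114 CPM in these 8 libraries, for counting error only. Reads were thus seen in both treatments and only in 3 mice. Its fitted log2 fold change of -0.34 (SE 2.73, 95% interval -6.65 to 5.98; edgeR, adjusted p = 1) carries no direction.

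No gene of the 10 was called between OSM and PBS at an adjusted p under 0.05 by edgeR (0 of 10, beside 0% of the 17050 genes tested). All 10 passed the filter on low counts, Nlrc5 through mice 8 and 9 alone. DESeq2 called 0 of 10 with litter as a term (0.763% of its genes) and 0 of 10 without it, and its lowest adjusted p was 0.118, for Psmb8. At an unadjusted p under 0.05, edgeR had 5 of 10 higher with OSM (H2-K1, H2-T23, B2m, Tapbp and Psmb8), beside 2.25% of all genes tested (4.96% in either direction), and 0 of 10 lower. A log2 fold change above 0 was found for 9 of 10 genes, beside 48.4% of all genes. The median over the 10 genes was 0.29, beside -0.01 over all genes tested. The log2 difference was above 0 in all 3 litters for 6 of 10 (H2-K1, H2-T23, Tap1, Tapbp, Psmb8 and Psmb9), beside 11.3% of all genes. For 0 of 10 was every OSM-treated mouse above every PBS-treated mouse, beside 0.182% of all genes. The genes share an interferon response and 8 share a region, so they are not independent observations of the treatment. With every gene that had reads kept in the fit, edgeR called B2m alone among the 10 (log2 fold change 0.42, adjusted p = 0.0422), beside 0.225% of 28940 genes.

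**Figure D4:**
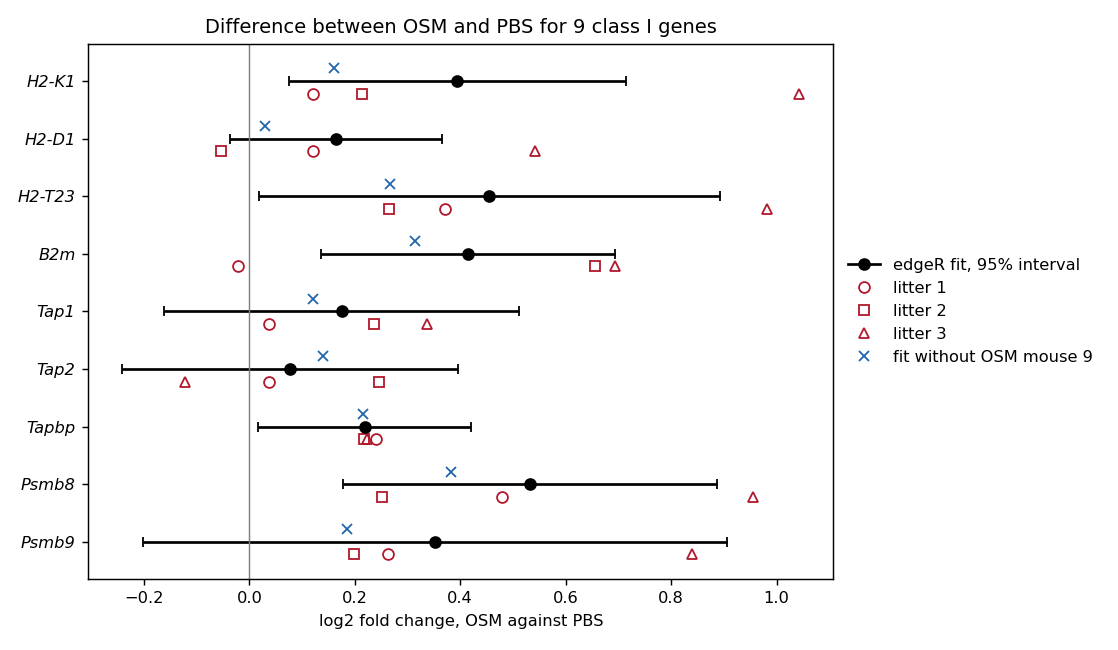
Log2 fold change between OSM and PBS for the 9 genes with reads in each mouse (black, edgeR, with 95% interval), the difference in each litter (red) and the fit without OSM-treated mouse 9 (blue crosses). For H2-K1, litter 3 gives 1.04 against 0.12 and 0.21 in litters 1 and 2, whereas Tapbp gives 0.22 to 0.24 in each litter.

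Litter 3 gave the largest difference for 7 of the 9 well-measured genes, and mouse 9 is its only OSM-treated mouse. Its differences are thus averaged over fewer mice, and the share of all genes that were largest in litter 3 was not counted. H2-K1 differed by 0.12, 0.21 and 1.04 (log2) in litters 1, 2 and 3, H2-D1 by 0.12, -0.05 and 0.54, and H2-T23 by 0.37, 0.26 and 0.98. B2m differed by -0.02, 0.65 and 0.69, and Psmb8 by 0.48, 0.25 and 0.96. In the interaction of treatment and litter, 0 of 10 genes were called by edgeR (beside 0% of all genes), and H2-K1 (unadjusted p = 0.00887), H2-D1 (unadjusted p = 0.0142) and B2m (unadjusted p = 0.00736) were under 0.05, beside 6.42% of all genes. Their adjusted p were 0.585, 0.639 and 0.561 (edgeR). Without mouse 9, the log2 fold change was 0.16 for H2-K1, 0.03 for H2-D1, 0.27 for H2-T23, 0.31 for B2m and 0.38 for Psmb8. The median over the 9 genes was then 0.18 in place of 0.35, all 9 were above 0, and 0 of 9 had an unadjusted p under 0.05. Without mouse 9, litter 3 holds PBS-treated mice only and adds nothing to the difference within litters. The fit without all of litter 3 was nearly the same, with a median of 0.19 and 0 of 9 under 0.05. The loss of low p values thus reflects the loss of a litter and not of 1 mouse alone.

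Marker levels of other cells were set beside these values. Leukocyte markers were highest in PBS-treated mice 3 and 4, at 33.7 and 87.6 CPM. In mouse 4, Lyz2 carried most of the sum. Its highest count, 2140 reads, exceeded the reads of all leukocyte markers in each mouse except mouse 4 (2798 reads). Single markers differed in direction: mean C1qb was 1.21 CPM with OSM and 0.0395 with PBS, mean Cd68 0.0279 and 1.20. Of the 6 PBS-treated mice, mice 3 and 4 also had the highest H2-K1 (215 and 192 CPM), B2m (834 and 768 CPM) and Tap2 (83.9 and 95.7 CPM). H2-D1 was instead highest in PBS-treated mice 7 and 8 (1529 and 1542 CPM), and H2-T23 (137 CPM) and Tapbp (360.5 CPM) in mouse 8. Psmb9 was highest in PBS-treated mouse 7 (46.0 CPM), Psmb8 in mouse 10 (57.8 CPM), Tap1 in mouse 11 (88.3 CPM) and Nlrc5 in mouse 8 (0.689 CPM). H2-K1 in mouse 3 was above that in OSM-treated mice 1, 5 and 6. In mouse 9, leukocyte markers (1.34 CPM) and rod markers (213 CPM) were the lowest of the 11 mice. Its erythroid markers summed to 619 CPM, against 117 and 261 CPM in the PBS-treated mice of its litter, and its mural markers to 537 CPM, against 1165 and 2024 CPM. The 5 tested erythroid genes had log2 fold changes of 1.02 to 1.46. Each had an unadjusted p under 0.05 by edgeR, beside 2.25% of all genes higher with OSM. Each was also above 0 in each litter, beside 11.3% of all genes. DESeq2 called Alas2 (adjusted p = 4.14e-05), Hbb-bt (adjusted p = 0.00474) and Hbb-bs (adjusted p = 0.0266), beside 0.763% of its genes. For 4 of these 5 genes, as for H2-K1 and Psmb8, litter 3 gave the largest difference. Litter 3 rests on mouse 9 alone for OSM, and the share of all genes with this trait was not counted. Of the mural genes, 0 of 10 had a log2 fold change above 0, beside 48.4% of all genes (median -0.74, beside -0.01). However, 0 of 10 had an unadjusted p under 0.05 by edgeR, beside 4.96% of all genes. Only 2 of 10 were below 0 in all 3 litters, beside 2188 of 17050 genes. In litter 2, Rgs5 (0.29) and Abcc9 (1.35) were above 0, whereas Cspg4 (-0.79) was below. The part of these cells in the class I values was not tested. Without OSM-treated mouse 5, which had the highest rod markers, the log2 fold change of Psmb8 was 0.63 and the median over the 9 genes 0.41. With each library thinned to the total of the smallest, the median over the 9 genes was 0.35, as without thinning.

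Between litters, 0 of the 10 genes were called by edgeR with treatment as a term (beside 0.0176% of all genes), and 0 of 10 had an unadjusted p under 0.05, beside 10.3% of all genes. In PBS-treated mice alone, mean H2-K1 was 203 CPM in litter 1, 159 in litter 2 and 158 in litter 3 (n = 2 each). Mean B2m was 801, 571 and 651 CPM in the same order.

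Another 63 genes of the pathway were fixed as 4 lists, of which 54 were tested. None was called (0 by edgeR), 5 were higher and 1 lower at an unadjusted p under 0.05, and the median log2 fold change was 0.05. Of the 13 genes for peptide supply, 11 had a value above 0 (84.6%, beside 48.4% of all genes), with a median of 0.06. The higher values included the constitutive subunit Psmb7 (0.31, SE 0.12, unadjusted p = 0.0249 by edgeR) and the inducible subunit Psmb10 (0.28, SE 0.15). The proteasome activators Psme1 (-0.0015, SE 0.10) and Psme2 (0.08, SE 0.12), the constitutive subunits Psmb5 (0.03, SE 0.14) and Psmb6 (0.04, SE 0.08), and the trimming peptidase Erap1 (0.15, SE 0.17) had values within their errors or near them.

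Of the 9 chaperones and export genes for loading, 7 had a value above 0 (77.8%, beside 48.4% of all genes). Their median was 0.06, and 0 had an unadjusted p under 0.05, beside 4.96% of all genes. Calreticulin (Calr) had 0.13 (SE 0.07), calnexin (Canx) -0.01 (SE 0.13), the disulfide isomerase Pdia3 0.10 (SE 0.07) and the tapasin relative Tapbpl 0.19 (SE 0.19). Among the 19 other class I and class I-like heavy chains, 10 were tested, 5 above 0 (beside 48.4% of all genes) and 5 below. Their median was -0.01, and 0 had an unadjusted p under 0.05, beside 4.96% of all genes. H2-M9 had 0 reads in each mouse, and H2-Q1, H2-Q7 and H2-T9 had at most 4 reads. These belong to multigene families, and their share of repeated sequence was not measured.

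Of the 22 regulators, 11 were above 0 and 11 below (50% above 0, beside 48.4% of all genes), with a median of 0.0034. Values above 0 with an unadjusted p under 0.05 included those of Stat2 (0.74, SE 0.33, unadjusted p = 0.0448 by edgeR), Creb1 (0.53, SE 0.20, unadjusted p = 0.0264) and Irf9 (0.40, SE 0.15, unadjusted p = 0.0214). Stat2 and Irf9 encode factors that carry the signal of type I interferon to the nucleus, and Creb1 encodes a factor that binds the X2 box. Tyk2, a kinase of the type I interferon receptor, had -0.97 (SE 0.34, unadjusted p = 0.0157 by edgeR) and was below 0 in each litter. Irf1, which acts on class I promoters after interferon gamma, had -0.01 (SE 0.16), and Rfx5, a subunit of the X box complex, had -1.53 (SE 1.23) with 3 to 581 reads per mouse.

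**Figure D5:**
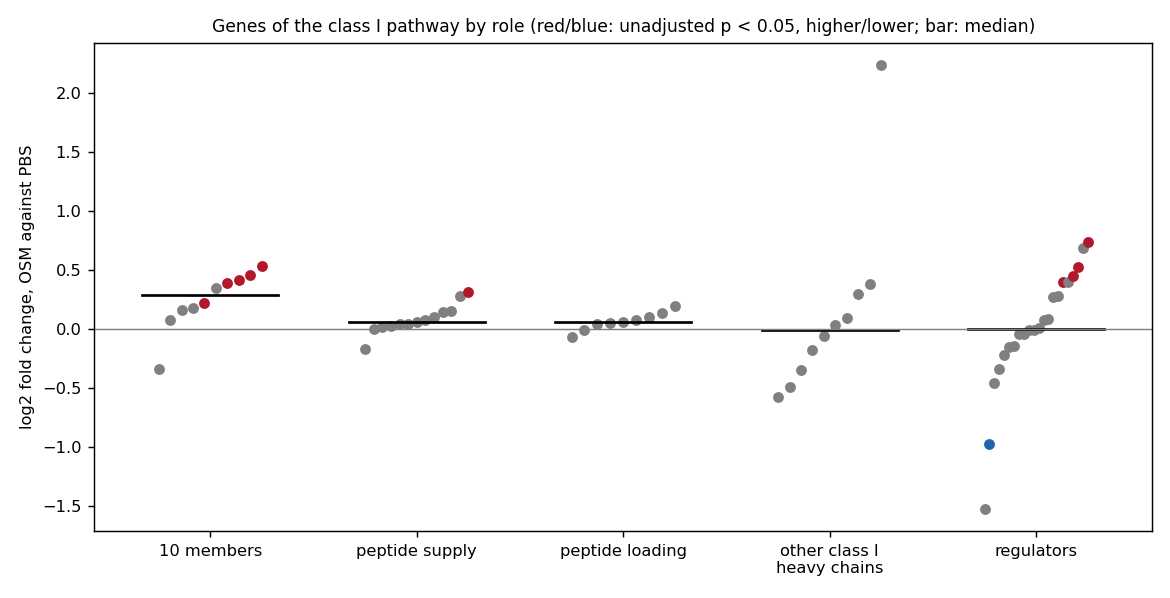
Log2 fold change between OSM and PBS of the tested genes of the class I pathway, by role, with red and blue for an unadjusted p under 0.05 and a bar for the median of each list. The 10 members have a median of 0.29, peptide supply and loading 0.06 each, other heavy chains -0.01 and regulators 0.0034.

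Across the 11 mice, the 8 other well-measured genes were correlated with B2m (log2 CPM, permutation test with 100000 draws, two-sided, adjusted over 8). H2-K1 had the highest Pearson's r, 0.71 (Spearman's rho 0.74, permutation p = 0.0132 for r and 0.0127 for rho, adjusted p = 0.0710 and 0.101). Psmb8 followed with r = 0.68 (rho 0.58, permutation p = 0.0218 and 0.0651, adjusted p = 0.0710 and 0.174) and H2-T23 with r = 0.67 (rho 0.64, permutation p = 0.0266 and 0.0410, adjusted p = 0.0710 and 0.164). Tap2 had the lowest, r = 0.27 (rho 0.23, permutation p = 0.422 and 0.507, adjusted p = 0.422 and 0.507). The other 4 lay between r = 0.32 for Psmb9 and 0.60 for Tap1, and 0 of 8 passed the threshold after adjustment. With litter means removed and permutation within litters, r was 0.70 for H2-K1, 0.69 for Psmb8 and 0.68 for H2-T23 (exact permutation p = 0.0810, 0.0370 and 0.0914, adjusted p = 0.207 each). Without mice 7 and 9, the farthest from the B2m median, r was 0.65 for H2-K1, 0.52 for Psmb8, 0.35 for H2-T23 and 0.02 for Tap1, so the relation of Tap1 rested on those mice, whereas r was 0.62 for Psmb9 and 0.44 for H2-D1. Leaving out these mice also narrows the range of B2m. Litters hold at most 4 mice, too few for a value in each. Treatment was not removed from these values, so each r mixes the difference between OSM and PBS with variation among mice.

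Genes outside the lists were ranked by the likeness of their pattern to the mean of the 10 genes (standardized log2 CPM with litter means removed, Spearman's rho over 11 mice, as a description). Nlrc5, with reads in 3 mice only, had the same weight in this mean as each other gene, and treatment was not removed. Ly6e, an interferon-inducible surface protein, had rho = 0.95 with 42828 to 101263 reads per mouse. The other 4 of the leading 5 were Gm48139 (rho = 0.95, 0 to 42 reads), Nupr2 (rho = 0.94, 0 to 146 reads), Pphln1, which encodes periphilin (rho = 0.94, 1004 to 4999 reads), and the malic enzyme gene Me1 (rho = 0.93, 44 to 345 reads). Among 17050 genes tested, 12 outside the lists had rho over 0.9. Of the 10 genes, H2-T23 was closest to their own mean (rho = 0.94) and Psmb9 farthest (rho = 0.25), and a member adds to the mean it is compared with.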

How the data were processed

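Retinal endothelial cells (CD31+/CD45-) of 11 mice were sorted at P17, and cDNA primed on poly(A) tails was amplified and sequenced as single reads. The authors mapped reads with STAR to GRCm39 and counted them on GENCODE genes (featureCounts, standard settings). The deposited counts are whole reads per gene and mouse, not normalized, with 1 library per mouse. PCR copies were not marked, so intervals and floors of counts cover counting error only. The headers of 2 files carry another mouse number than the sample titles, which were used; treatment and litter are the same either way.

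All 55359 genes were kept, and 54749 were matched by Ensembl ID to GENCODE vM39 for symbols, lengths and positions. The main test was edgeR 4.0.16 in R 4.3.3 with terms for litter and treatment. It used TMM factors, genes passing filterByExpr (minimum count 10, 17050 genes), robust quasi-likelihood fits and Benjamini-Hochberg adjustment over all genes tested (threshold 0.05). Standard errors came from the log2 fold change and its F statistic. CPM were scaled by TMM, and log2 CPM used a prior count of 2. Single ratios were tested by exact permutation within litters. DESeq2 1.42.0 was an alternative. Tests were tried on simulated data. The 10 genes and the lists were chosen with earlier results of these data known. Besides the 10 genes, those named are partner genes listed beforehand, genes of 4 pathway lists with an unadjusted p under 0.05, and the 5 most alike in pattern. The values of 1 gene that this rule names are not reported here. Tests of correlation with Nlrc5 were planned and could not be made, because 8 mice had 0 reads, and B2m took its place after the data were seen. H2-M9, H2-Q1, H2-Q7, H2-T9, Alas2, Hbb-bt, Hbb-bs and the lysozyme gene were also singled out after their values were seen.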

Additional observations from a re-analysis of the deposited data

Results flagged for a closer look

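Within each treatment group, the gap of the highest or lowest mouse to its neighbour was compared with Dixon's 95% limit, for the 10 genes and 3 subunit ratios, 26 groups in all, of which chance would give about 1 in 20. Psmb8 in PBS-treated mouse 10 (57.8 CPM) stood above the other PBS-treated mice, with a gap of 0.634 of the range against a limit of 0.625, and this value lies below those of 4 OSM-treated mice. Nlrc5 stood apart in OSM-treated mouse 9 (0.483 CPM) and PBS-treated mouse 8 (0.689 CPM), where nearly all of its reads were counted.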

How the results depend on the processing

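Over the 22 alternatives (no litter term, other size factors, other filters, no robust estimation, thinning, DESeq2, each mouse or litter left out), the log2 fold changes of H2-K1, H2-D1, H2-T23, B2m, Tap1, Tapbp, Psmb8 and Psmb9 stayed above 0. Tap2 was at -0.0068 without PBS replicate 7 and at -0.023 without litter 2 (-0.0068 to 0.14 without 1 mouse at a time). Nlrc5 was at 1.588 without OSM replicate 5 and at 1.589 without OSM replicate 6 (-2.40 to 1.59 without 1 mouse at a time). Genes called over the whole table were 0 in the main fit and 0 without 1 mouse at a time, 65 without a filter on low counts, and 168 (with litter) and 88 (without litter) by DESeq2. Members called were 0, and 1 without the filter (B2m); leaving out mice gave 0 to 0. The cause of these differences was not tested. The B2m log2 fold change was 0.31 to 0.49 without 1 mouse at a time. The difference of Psmb8/Psmb5 was 0.44 to 0.58 without 1 mouse at a time (adjusted p = 0.0556 to 0.333, exact permutation test), that of Psmb9/Psmb6 0.20 to 0.49, and that of Psmb10/Psmb7 -0.14 to 0.064, and the last was 0.024 without litter, over all splits of the mice. Levels in CPM per kb changed with the length used: on exons that no other gene overlaps they were 632 for H2-D1, 167 for Tapbp, 84.9 for H2-K1 and 19.9 for Tap2, and on the canonical transcript 677 for H2-D1, 709 for B2m, 116 for Tapbp, 122 for H2-K1, 74.1 for H2-T23, 35.5 for Psmb8, 20.3 for Tap2, 23.97 for Tap1 and 24.4 for Psmb9. No paired analysis was possible because mice of the groups share no numbers. A count of 0 for Nlrc5 bounds its level only to the 3 reads given with its values.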
